A study of Mus musculus with 12 samples.

Results

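Histone lysine methyltransferases and demethylases are the enzymes that write and erase methyl groups on the lysines of histone tails. Here they are the 44 genes whose symbols begin with Kdm, Kmt, Setd, Nsd, Ehmt or Suv39, together with Dot1l, Ash1l, Smyd2 and Smyd3. They were picked by symbol, under a rule set with earlier results of these data known. They are 44 of the 21713 symbols that stand on a single row of the count table. Of the 44, 27 are methyltransferases or their SET domain relatives and 17 carry the demethylase prefix Kdm. Kdm2b was set aside by the rule.

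RNA was taken from the whole cortex of adult mice of 3 Tet1 genotypes, KO, HxD and WT, with 4 libraries each, and polyadenylated RNA was sequenced. Tet1 encodes a dioxygenase that oxidises 5-methylcytosine in DNA. The study's title sets its catalytic against its non-catalytic functions, and HxD is also the name given to the iron-binding motif of this enzyme family. The labels give the genotype of each group and nothing on how either allele was made, on zygosity, on sex or on the age beyond adult. Whether each library is a mouse of its own is not stated either. A p-value here therefore sets a difference against the spread among libraries of the same genotype. That spread was estimated from all 12 libraries together, the third genotype included, and it may be technical. In a whole tissue, fewer cells of a type and less RNA per cell cannot be told apart.

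Most lysine methyltransferases share the SET domain, which takes its methyl group from S-adenosylmethionine, whereas DOT1L has a fold of its own. Methylation of histone H3 at K4 and K36 goes with active genes, and methylation at K9 and K27 with silent ones. Demethylases are of 2 kinds. The LSD1 family oxidises the methyl-lysine with FAD, and the JmjC family uses iron and 2-oxoglutarate, as TET enzymes do on DNA. Loss of function of many of these genes in humans causes disorders of brain development, among them KMT2D and KDM6A in Kabuki syndrome, NSD1 in Sotos syndrome and EHMT1 in Kleefstra syndrome.

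The summed estimated counts of a library were 5791642 to 9535409 in KO, 7767787 to 10347432 in HxD and 8310783 to 10915574 in WT. Values below are CPM, the counts scaled to a common library size, unless stated otherwise. Tet1 itself does not check the labels, because it was listed at 0 in all 4 KO and all 4 WT libraries and held 1, 0, 63 and 67 counts in HxD 1 to 4. Gapdh, which every cell uses, was also listed at 0 in all 12 libraries, so a 0 in this table need not mean that a gene was silent. Excitatory neuron markers summed to 5110 to 6870 CPM in KO, 4380 to 7070 in HxD and 5020 to 7630 in WT. Choroid plexus markers reached 271 in an HxD library, against at most 10.2 in KO and 35.6 in WT, and striatal markers reached 1120 in HxD, against at most 436 in KO and 670 in WT. Csf1r, a defining receptor of microglia, and Pecam1 of endothelium were listed at 0 throughout. The part of these differences in the values below was not tested.

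Promoter windows were examined first because the chromatin that TET1 binds is rich in CpG, the dinucleotide whose cytosine is methylated. RefSeq (GRCm38.p6) gave 42 windows for 33 of the 44 genes, each reaching from 250 bases before to 50 bases after a transcript start. Their median was 28 CpG, against 20 for 11618 windows of the genes tested and 7 for all 32851 windows. At least 10 CpG stood in 38 of the 42 (90.5%), against 78.7% of windows of tested genes and 43.5% of all windows. Of the 4 windows below that, a Kdm3a and a Kdm4c window had 0, that of Setd5 had 1 and a Kmt5a window had 9. The other windows of Kdm3a held 24 and 40 CpG, that of Kdm4c 28 and those of Kmt5a 18 and 51. Kdm7a had the most with 65. A GC box, read as GGGCGG or CCGCCC and holding a CpG itself, was found in 71.4% of the windows, against 62.6% for tested genes and 35.7% for all. The letters CCAAT or ATTGG were found in 38.1%, against 37.5% and 37.4%. TATAAA or TTTATA was found in 2.38%, which is the window of Kdm5d on the Y chromosome, against 7.08% and 13.6%. These are matches of letters on either strand, and no binding or methylation was measured. The windows of 3 genes are shown because they differ in CpG count and because their genes recur in the results. Setd7 has a near constant level, Kmt2a has wide steps between libraries, and Setd5 has a CpG-poor window. RefSeq lists 34 transcripts of Setd5 and this is its only window, so whether it is the main start is not known. CpG dinucleotides are in capitals, and each reads 5′ to 3′ on the strand of the gene.
Setd7, chr3:51560774-51561073, minus strand, 21 CpG: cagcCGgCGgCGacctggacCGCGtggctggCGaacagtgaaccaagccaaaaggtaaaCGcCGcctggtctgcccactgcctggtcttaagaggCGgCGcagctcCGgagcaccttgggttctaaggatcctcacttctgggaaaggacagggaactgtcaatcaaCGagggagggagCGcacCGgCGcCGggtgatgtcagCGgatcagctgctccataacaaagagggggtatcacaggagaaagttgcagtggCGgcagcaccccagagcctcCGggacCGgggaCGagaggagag
Kmt2a, chr9:44881240-44881539, minus strand, 36 CpG: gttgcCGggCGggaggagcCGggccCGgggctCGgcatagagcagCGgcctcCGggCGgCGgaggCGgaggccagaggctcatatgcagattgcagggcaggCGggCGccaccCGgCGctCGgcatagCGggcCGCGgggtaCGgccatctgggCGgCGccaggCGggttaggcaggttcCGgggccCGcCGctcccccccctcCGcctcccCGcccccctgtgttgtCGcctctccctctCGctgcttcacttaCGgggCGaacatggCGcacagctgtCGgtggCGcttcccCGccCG
Setd5, chr6:113104685-113104984, plus strand, 1 CpG: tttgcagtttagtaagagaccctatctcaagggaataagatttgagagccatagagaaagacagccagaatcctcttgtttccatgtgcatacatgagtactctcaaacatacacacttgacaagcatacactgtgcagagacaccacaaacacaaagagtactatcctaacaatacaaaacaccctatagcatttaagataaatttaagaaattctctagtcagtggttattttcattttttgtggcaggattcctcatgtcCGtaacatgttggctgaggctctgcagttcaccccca

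**Figure D1:**
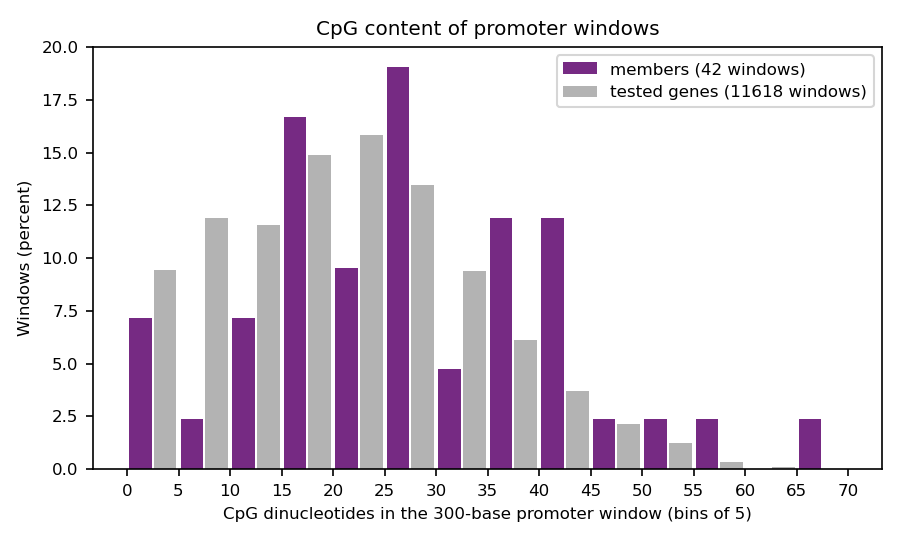
Share of promoter windows (vertical axis, percent) by the number of CpG dinucleotides they hold (horizontal axis, bins of 5), for 42 windows of the histone lysine methyltransferase and demethylase genes (purple) and 11618 windows of tested genes (grey). The median is 28 CpG for the enzymes and 20 for tested genes.

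The family took a similar share of the transcriptome in the 3 genotypes. The 44 genes summed to 2729 ± 245 CPM in KO, 2751 ± 397 in HxD and 2693 ± 175 in WT (SD, n = 4 each). The methyltransferases gave 2095 ± 208 of this in KO, 2148 ± 350 in HxD and 2088 ± 177 in WT, and the demethylases 633.6 ± 69.2 in KO, 603.4 ± 54.4 in HxD and 605.1 ± 33.0 in WT. The group means thus lie closer to each other than the libraries of a group do.

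A gene was called when its adjusted p was below 0.05 in edgeR's quasi-likelihood test, with Benjamini-Hochberg adjustment over 11693 genes that passed a filter on low counts. That filter passed 37 of the 44 genes, 23 methyltransferases and 14 demethylases. None of the 37 was called in KO against WT, where the background was 18 of 11693 genes (0.154%). None was called in KO against HxD, with 119 genes in the background (1.02%), and none in HxD against WT, with 105 genes (0.898%). At an unadjusted p below 0.05 there was 1 of 37 in KO against WT (Kdm6b, background 9.48%), 0 in KO against HxD (background 11.6%) and 2 in HxD against WT (Kmt2a and Kdm6a, background 4.05%). The DESeq2 Wald test called 0 in each comparison, with 2, 1 and 2 at an unadjusted p below 0.05. Limma-voom called 0 in each, with 0 below that level.

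The estimated differences lay around 0. The median log2 fold change of the 37 genes was -0.003 in KO against WT, where all tested genes had 0.006. It was -0.004 in KO against HxD, against 0.002 for all, and 0.022 in HxD against WT, against 0.007 for all. There were 18, 18 and 21 of 37 above 0 in these 3 comparisons, which share libraries and are not independent of each other. The median size of the change, without its sign, was 0.168 against 0.209 for all tested genes in KO against WT, 0.143 against 0.225 in KO against HxD, and 0.137 against 0.151 in HxD against WT.

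A missed threshold does not show that levels were alike, so the 95% intervals were read as well. In each of the 3 comparisons the interval of 22 of 37 genes (59.5%) lay inside a 2-fold change in either direction, against 58.6%, 57.2% and 60.5% of all tested genes. For 19 genes it did so in all 3 comparisons, and for 14 of these it lay inside 1.5-fold. The 14 are Ash1l, Kdm1b, Kdm4b, Kdm4c, Kdm5a, Kdm5b, Kdm7a, Kmt2b, Nsd1, Setd2, Setd3, Setd6, Setd7 and Smyd2. The other 18 tested genes had an interval that passed 2-fold in at least 1 comparison, so a change of that size lies within the interval of that comparison.

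**Figure D2:**
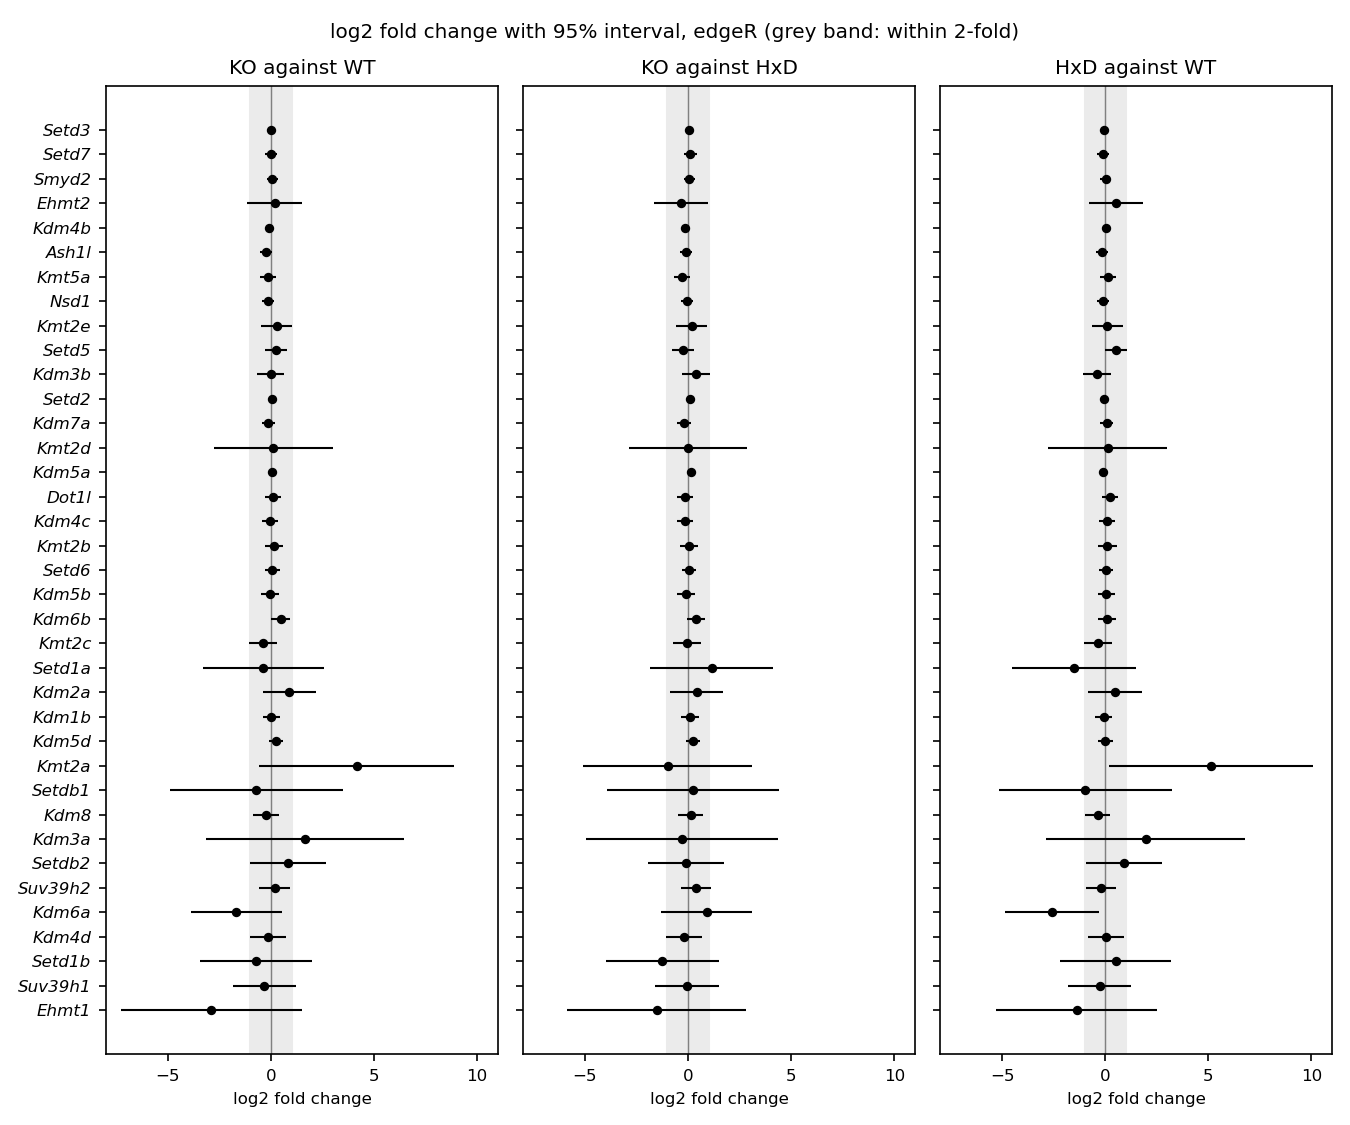
Log2 fold change (horizontal axis) of the 37 tested genes, ordered by level, in KO against WT, KO against HxD and HxD against WT. Lines are approximate 95% intervals derived from edgeR's test. The grey band marks changes within 2-fold, which hold the interval of 22 genes in each panel, and the widest intervals belong to Kmt2a, Kdm3a, Ehmt1 and Setdb1.

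Levels ranged over several orders of magnitude. Divided by the length of the longest annotated transcript, the highest mean over the 12 libraries was that of Setd3 with 82.0 CPM per kilobase, ahead of Setd7 with 46.8, Smyd2 with 43.7, Ehmt2 with 31.3, Kdm4b with 22.4 and Ash1l with 21.2. Setd7 and Smyd2 overlapped across libraries, at 38.6 to 55.9 and 36.3 to 54.5 CPM per kilobase, whereas Setd3 stood above both at 75.3 to 88.5. At the other end, Kdm1a (LSD1) and Setd4 were listed at 0 in all 12 libraries. Smyd3 held 2 counts in WT 4 and 0 elsewhere, and Kdm5c held 29 counts in HxD 4 and 0 elsewhere. Kmt5b held 0 to 6 counts, Kdm4a 0 to 17 and Kmt5c 0 to 78, and these 7 genes were not tested.

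**Figure D3:**
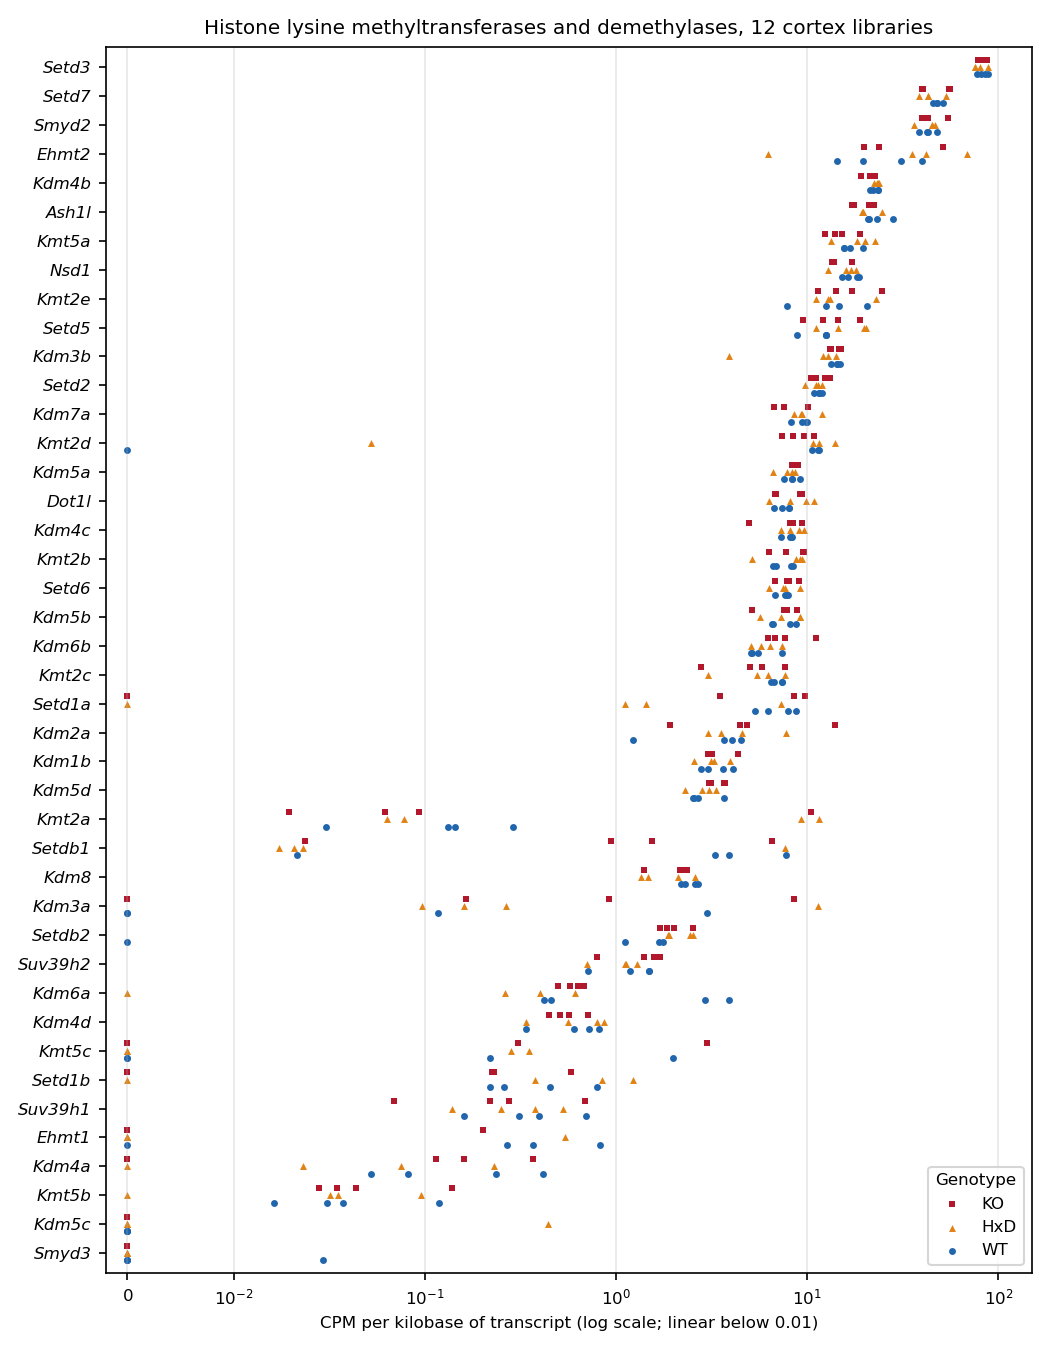
CPM per kilobase of transcript (horizontal axis, logarithmic above 0.01) in each library for the 42 genes above 0 in at least 1 library, ordered by their mean, with KO as red squares, HxD as orange triangles and WT as blue circles. Setd3, Setd7 and Smyd2 lead with narrow ranges, while Kmt2a, Kmt2d, Setd1a, Setdb1 and Kdm3a are spread over more than 100-fold or include libraries at 0.

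Among the H3K4 methyltransferases, which mark promoters and enhancers, Setd7 adds a single methyl group and also acts on many proteins other than histones. It had 414, 299, 296 and 411 CPM in KO 1 to 4, 317, 316, 286 and 394 in HxD 1 to 4, and 339, 380, 352 and 355 in WT 1 to 4. The genotypes overlapped, and KO 2 and KO 3 lay below KO 1 and KO 4. Ash1l, a Trithorax relative to which methylation of both K4 and K36 has been ascribed, had 245, 201, 204 and 261 CPM in KO 1 to 4, 229, 226, 227 and 287 in HxD 1 to 4, and 246, 326, 242 and 271 in WT 1 to 4. It shows the same order within KO. Its log2 fold change was -0.25 ± 0.13 (SE) in KO against WT (edgeR, adjusted p = 0.595). Nsd1, an H3K36 dimethyltransferase, again had lower values in KO 2 and KO 3, with 220, 176, 173 and 220 CPM in KO 1 to 4, 204, 165, 229 and 218 in HxD 1 to 4, and 239, 233, 195 and 208 in WT 1 to 4.

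These are long transcripts, and libraries differed in how values depend on length. The slope of the log2 value per doubling of transcript length, over all tested genes, was -0.0192, -0.100, -0.0972 and -0.00973 in KO 1 to 4. It was 0.0220, -0.122, 0.0494 and 0.0823 in HxD 1 to 4, and 0.0803, 0.0992, 0.0168 and -0.00147 in WT 1 to 4. The lowest slopes were thus those of HxD 2, KO 2 and KO 3. The tested members have a median length of 6487 bases, against 3391 for all tested genes. With the length trend removed from each library, the members' median log2 fold change was 0.06 in KO against WT, 0.03 in KO against HxD and 0.04 in HxD against WT. That of Ash1l in KO against WT was then -0.10. Other long members were mixed. Kmt2c and Kmt2d also had KO 2 and KO 3 below KO 1 and KO 4, whereas Kdm5a (10944 bases) and Kdm5b (8714 bases) did not. Kmt5a, a shorter transcript of 2739 bases, had that order too. Whether length plays a part in the KO 2 and KO 3 values of Setd7, Ash1l and Nsd1 was not tested.

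The KMT2 genes, which include catalytic subunits of the COMPASS complexes, behaved unevenly between libraries. Kmt2a (MLL1), singled out after its values were seen, had 1.54, 172, 0.321 and 1.02 CPM in KO 1 to 4, 189, 1.04, 1.29 and 153 in HxD 1 to 4, and 4.79, 2.38, 2.19 and 0.501 in WT 1 to 4. KO 2, HxD 1 and HxD 4 were high and the other 9 libraries were below 5, so that KO and HxD were each split. Its log2 fold change was 4.15 ± 2.14 in KO against WT (adjusted p = 0.599) and 5.13 ± 2.23 in HxD against WT (adjusted p = 0.999). Without KO 2 the value in KO against WT was -1.40. Kmt2d (MLL4), an H3K4 monomethyltransferase of enhancers, had 216, 168, 146 and 191 CPM in KO 1 to 4, 213, 1.04, 278 and 229 in HxD 1 to 4, and 0, 229, 225 and 209 in WT 1 to 4. It was high in 10 libraries, close to 0 in HxD 2 and listed at 0 in WT 1. Setd1a, which trimethylates H3K4, had 0, 22.7, 63.6 and 55.3 CPM in KO 1 to 4, 7.21, 0, 47.5 and 9.36 in HxD 1 to 4, and 34.5, 51.6, 57.0 and 40.7 in WT 1 to 4. WT was the steadier group, and the ranges of the 3 genotypes overlapped. Kmt2b and Kmt2c stayed above 0 throughout, at 43.5 to 81.7 and 41.6 to 114 CPM. Kmt2e ranged over 57.4 to 181 CPM and Setd1b over 0 to 10.9. Summed over the 10 genes classed here as H3K4 methyltransferases, the level was 1120 ± 142 CPM in KO, 1120 ± 232 in HxD and 1120 ± 147 in WT.

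The H3K9 methyltransferases, which mark silent chromatin, summed to 146 ± 59.3 CPM in KO, 177 ± 122 in HxD and 139 ± 30.2 in WT. Ehmt2 (G9a), the main H3K9 dimethyltransferase, made up most of it, with 79.8, 95.3, 96.0 and 207 CPM in KO 1 to 4, 276, 25.0, 168 and 143 in HxD 1 to 4, and 78.9, 125, 161 and 58.0 in WT 1 to 4. The HxD libraries held both the highest and the lowest of these 12 values. Its partner Ehmt1 (GLP) was listed at 0 in 7 libraries and reached at most 4.91 CPM. Setdb1, which silences retroelements with TRIM28, had 8.73, 0.134, 37.1 and 5.30 CPM in KO 1 to 4, 43.2, 0.130, 0.117 and 0.0975 in HxD 1 to 4, and 22.1, 18.6, 0.122 and 43.8 in WT 1 to 4. Each genotype had at least 1 library with a single count of it and at least 1 above 37 CPM. Setdb2 was the member whose libraries did not overlap between groups. It had 5.14, 5.61, 6.10 and 7.69 CPM in KO 1 to 4, 7.64, 5.72, 7.38 and 5.66 in HxD 1 to 4, and 0, 5.33, 3.40 and 5.11 in WT 1 to 4. The HxD libraries lay above the WT libraries by a narrow margin, with a log2 fold change of 0.93 ± 0.84 (adjusted p = 0.999) that was 0.51 without WT 1. Such separation was seen for 1 of 37 members in HxD against WT, with 3.48% of all tested genes, for 0 in KO against WT, with 7.2%, and for 0 in KO against HxD, with 7.59%. Suv39h1 and Suv39h2, the enzymes of pericentromeric heterochromatin, were low, at 0.214 to 2.17 and 3.04 to 7.35 CPM.

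Of the H3K36 methyltransferases, which mark transcribed gene bodies, Smyd2 also methylates p53 and other proteins. It had 73.6, 72.0, 93.1 and 67.8 CPM in KO 1 to 4, 77.2, 77.2, 79.9 and 61.9 in HxD 1 to 4, and 73.0, 65.4, 72.6 and 81.5 in WT 1 to 4, with the genotypes overlapping. Setd2, which adds the third methyl group to H3K36 and travels with RNA polymerase II, stayed within 81.6 to 110 CPM over the 12 libraries. The 3 genes of this class summed to 373 ± 30.8 CPM in KO, 370 ± 34.0 in HxD and 388 ± 21.9 in WT. Kmt5a, the H4K20 monomethyltransferase, had 51.6, 38.3, 34.1 and 41.7 CPM in KO 1 to 4, 36.7, 61.9, 50 and 54.7 in HxD 1 to 4, and 42.6, 53.4, 45.9 and 42.9 in WT 1 to 4. Dot1l, the H3K79 methyltransferase, had 63.9, 47.0, 46.1 and 62.5 CPM in KO 1 to 4, 43.0, 55.5, 67.3 and 74.2 in HxD 1 to 4, and 54.9, 50.4, 45.6 and 54.7 in WT 1 to 4. Both overlapped between the genotypes, and HxD had the widest range of each.

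Setd3, which methylates a histidine of actin rather than a histone, had the lowest coefficient of variation over the 12 libraries, 5.83%, next to 5.99% for Kdm4b, while within genotypes Kdm4b was lower with 4.97% against 6.12%. Setd3 had 248, 238, 266 and 261 CPM in KO 1 to 4, 230, 270, 231 and 246 in HxD 1 to 4, and 248, 270, 237 and 259 in WT 1 to 4. Its 95% intervals in the 3 comparisons stayed within log2 fold changes of -0.21 and 0.21. Setd5, a SET domain gene mutated in intellectual disability whose own enzyme activity is disputed, had 81.7, 64.5, 97.4 and 128 CPM in KO 1 to 4, 137, 74.9, 134 and 97.9 in HxD 1 to 4, and 59.7, 84.5, 84.7 and 84.3 in WT 1 to 4. HxD 2 lay inside the WT range and the other 3 HxD libraries above it, with a log2 fold change of 0.50 ± 0.24 in HxD against WT (edgeR, adjusted p = 0.999). Setd6, which methylates the NF-κB subunit RelA, stayed within 10.8 to 15.7 CPM.

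Among the demethylases, the KDM4 family acts on H3K9 and H3K36. Kdm4b had 98.0, 87.5, 99.0 and 104 CPM in KO 1 to 4, 106, 109, 103 and 107 in HxD 1 to 4, and 98.0, 108, 101 and 107 in WT 1 to 4. KO 4 reached into the HxD range and the other 3 KO libraries were below it. The difference was small, with a log2 fold change of -0.13 ± 0.07 in KO against HxD (adjusted p = 0.483), and its intervals in the 3 comparisons stayed within -0.28 and 0.19. Kdm4c had 20.9, 39.3, 34.3 and 35.2 CPM in KO 1 to 4, 38.0, 30.8, 40.2 and 34.3 in HxD 1 to 4, and 34.2, 34.5, 34.9 and 30.6 in WT 1 to 4. KO 1 was the lowest library and lay below the other 11. Kdm4d, on 7 to 22 counts a library, was at 0.910 to 2.34 CPM.

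The H3K4 demethylases of the KDM5 family summed to 186 ± 17.1 CPM in KO, 178 ± 23.7 in HxD and 180 ± 13.3 in WT. Kdm5a had 94.9, 97.8, 93.9 and 91.7 CPM in KO 1 to 4, 94.6, 72.7, 91.4 and 86.1 in HxD 1 to 4, and 91.3, 91.1, 82.5 and 101 in WT 1 to 4. The low value of HxD 2 apart, the libraries lay between 82.5 and 101. Kdm5b had 76.9, 66.1, 68.2 and 44.8 CPM in KO 1 to 4, 80.2, 63.7, 80.2 and 49.6 in HxD 1 to 4, and 71.1, 75.9, 57.4 and 57.7 in WT 1 to 4, with overlap throughout. Kdm5d, given as a sex-linked gene, lies on the Y chromosome and had 147 to 257 counts in each of the 12 libraries, while the X-linked Kdm5c, a gene of X-linked intellectual disability, was at 0 in 11. Xist, the RNA of the inactive X chromosome, held at most 8 counts, so all 12 libraries carried the Y-linked transcript and little Xist. Kdm5c and Kdm5d are close copies, and how shared reads were counted is not given in the sources used here, which leaves the split between them uncertain. The Y-linked genes Ddx3y and Eif2s3y also had counts in each of the 12 libraries, at 474 to 987 and 112 to 318. Kdm5d was at 29.5, 29.4, 24.4 and 25.1 CPM in KO 1 to 4, 26.6, 22.5, 24.6 and 18.4 in HxD 1 to 4, and 29.3, 20.2, 21.5 and 20.4 in WT 1 to 4. WT 1 lay within the KO range, and the log2 fold change in KO against WT was 0.25 ± 0.16 (edgeR, adjusted p = 0.689).

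The H3K27 demethylases oppose Polycomb. Kdm6b (JMJD3), which many stimuli induce, had 73.8, 51.2, 41.4 and 45.3 CPM in KO 1 to 4, 42.4, 33.7, 48.9 and 38.0 in HxD 1 to 4, and 48.9, 33.7, 34.2 and 37.0 in WT 1 to 4. KO 1 and KO 2 exceeded every library of the other genotypes, and KO 3 and KO 4 lay within them. The log2 fold change was 0.46 ± 0.20 in KO against WT (adjusted p = 0.503) and 0.38 ± 0.20 in KO against HxD (adjusted p = 0.506), and without KO 1 these were 0.26 and 0.17. Kdm6a (UTX) had 3.43, 2.94, 4.06 and 3.76 CPM in KO 1 to 4, 2.37, 1.56, 0 and 3.61 in HxD 1 to 4, and 2.51, 23.3, 17.3 and 2.71 in WT 1 to 4. WT 2 and WT 3 stood apart from the other 10 libraries, and the log2 fold change in HxD against WT was -2.59 ± 1.03 (edgeR, adjusted p = 0.999). Its close Y-linked copy Uty held 22, 3, 16 and 132 counts in KO 1 to 4, 113, 123, 204 and 147 in HxD 1 to 4, and 219, 155, 2 and 43 in WT 1 to 4. WT 2 was high for both genes. WT 3 was high for Kdm6a but held 2 Uty counts, and HxD 3 had Kdm6a at 0 with 204 Uty counts.

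The KDM3 enzymes remove H3K9 methylation. Kdm3b had 93.9, 84.4, 83.9 and 96.0 CPM in KO 1 to 4, 81.9, 76.9, 24.8 and 89.9 in HxD 1 to 4, and 94.1, 91.5, 84.8 and 91.4 in WT 1 to 4. HxD 3 lay far below the rest, and the log2 fold change in HxD against WT was -0.40 ± 0.30 (edgeR, adjusted p = 0.999) and -0.13 without HxD 3. Kdm3a had 4.45, 0.802, 41.6 and 0 CPM in KO 1 to 4, 1.29, 0.780, 0.468 and 55.6 in HxD 1 to 4, and 0, 0.571, 14.5 and 0 in WT 1 to 4. In each genotype 1 library was far above the others. Kdm7a, which acts on H3K9 and H3K27, had 96.8, 64.4, 72.4 and 96.2 CPM in KO 1 to 4, 81.9, 89.7, 89.3 and 115 in HxD 1 to 4, and 95.8, 94.7, 78.4 and 90.4 in WT 1 to 4, again with KO 2 and KO 3 low. Kdm2a, an H3K36 demethylase that binds unmethylated CpG, had 120, 41.6, 16.4 and 38.4 CPM in KO 1 to 4, 66.5, 26.1, 39.0 and 30.4 in HxD 1 to 4, and 31.7, 34.9, 10.5 and 38.8 in WT 1 to 4. KO 1 was the highest library and the others overlapped. Of the LSD1 family, Kdm1b had 15.9, 15.2, 21.7 and 15.4 CPM in KO 1 to 4, 16.3, 12.7, 19.7 and 15.7 in HxD 1 to 4, and 18.1, 15.2, 13.9 and 20.3 in WT 1 to 4, without separation of the genotypes. Kdm8 stayed within 3.25 to 6.38 CPM.

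The family thus held steady and stepped genes. The highest library was less than 2-fold above the lowest, on CPM plus 0.5, for 18 of 37 genes (48.6%), against 43.5% of all tested genes, and the coefficient of variation of these 18 was 5.83% to 22.0%. It was more than 8-fold above for 11 genes (29.7%), against 19.4% of tested genes. The 11 are Ehmt1, Ehmt2, Kdm2a, Kdm3a, Kdm6a, Kmt2a, Kmt2d, Setd1a, Setd1b, Setdb1 and Setdb2. A jump within a genotype between a library at 0 and a library of at least 100 counts was found for 3 of the 30 members that reach 100 counts (10%), namely Kmt2d, Setd1a and Kdm3a. The share over all genes was the same, with 929 of 9250 (10%). Genes of the steadier set had a median of 6.5 RefSeq transcripts (1 to 24) and those of the stepped set 6 (1 to 41). The largest CpG count of a gene's windows had a median of 28 over 13 steady genes (13 to 65) and 34 over 9 stepped genes (15 to 40).

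**Figure D4:**
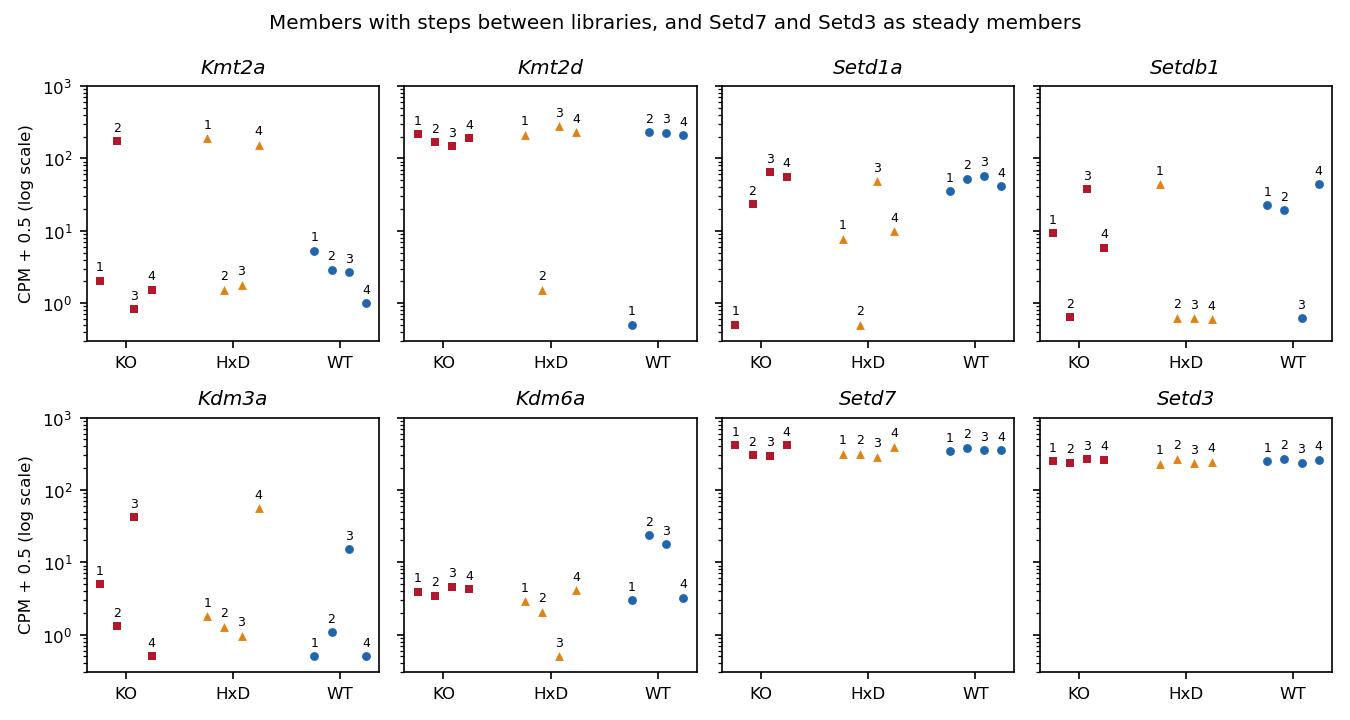
CPM plus 0.5 (vertical axis, logarithmic) in each library, numbered by replicate, for Kmt2a, Kmt2d, Setd1a, Setdb1, Kdm3a and Kdm6a, whose values step between libraries of a genotype, and for Setd7 and Setd3 as steady genes. Kmt2a is high in KO 2, HxD 1 and HxD 4, and Kmt2d is low in HxD 2 and WT 1.

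The partners of these enzymes were examined as lists, which were chosen with earlier results of these data known. Their shares of called genes beside the background are therefore descriptive and no test of an excess. Of 14 COMPASS subunits, which hold KMT2 and SETD1 enzymes, 12 were tested and 0 were called in any comparison by edgeR. In KO against WT, KO against HxD and HxD against WT, an unadjusted p below 0.05 held for 9.48%, 11.6% and 4.05% of tested genes. Of the 12 subunits, 0, 1 and 1 passed that level, in the same order. Among them, Ash2l, a core subunit, had 33.8 ± 7.29 CPM in KO, 48.4 ± 9.80 in HxD and 44.0 ± 6.52 in WT, and its log2 fold change was -0.52 ± 0.19 in KO against HxD (adjusted p = 0.341). Bod1l averaged 4.91 ± 9.02 CPM in KO, 58.7 ± 73.1 in HxD and 1.18 ± 1.53 in WT, with the spread in HxD larger than its mean. Of 12 LSD1 and CoREST partners, all tested, 1 was called in HxD against WT (background 0.898%). Hmg20b, an HMG protein of the CoREST complex, was higher in HxD than in WT, at 43, 139, 86 and 89 counts in HxD 1 to 4 and 13, 8, 7 and 4 in WT 1 to 4. Its log2 fold change was 3.55 ± 0.55 (edgeR, adjusted p = 0.00827), a call lost in 1 of 21 alternatives, limma-voom, with an adjusted p of 0.315. In KO 1 to 4 it held 24, 22, 51 and 11 counts, and KO against WT gave an adjusted p of 0.223.

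Of 11 partners and readers of H3K9 methylation, 9 were tested and 1 was called in KO against HxD (background 1.02%). Wiz, a zinc finger protein that recruits Ehmt1 and Ehmt2, was at 0 in each of the HxD libraries and held 6, 95, 70 and 62 counts in KO 1 to 4. The call, higher in KO than in HxD (edgeR, adjusted p = 0.0406), was lost in 12 of 20 alternatives, with adjusted p-values up to 0.394. Among the 12 were limma-voom and the removal of any HxD library. In the fit of the KO and HxD libraries alone, Wiz did not pass the filter and was not tested. In WT 1 to 4 the gene held 20, 17, 18 and 129 counts, and HxD against WT gave an adjusted p of 0.0697. Of 29 other genes with SET or JmjC domains, 19 were tested. Prdm10, a PR domain zinc finger gene, was the one called, with 10, 15, 24 and 15 counts in KO 1 to 4, 0, 0, 2 and 0 in HxD 1 to 4, and 47, 53, 35 and 41 in WT 1 to 4. It was lower in HxD than in WT (edgeR, adjusted p = 0.00315), a call kept in all 21 alternatives, and higher in KO than in HxD (adjusted p = 0.0112). The second call was lost in 2 of 21 alternatives, the fit with a replicate block and that of 8 libraries, with adjusted p-values up to 0.0649. The calls of Wiz and Prdm10 rest on HxD libraries at or near 0. A 0 in this table need not mean that a gene was silent, and the alternatives reuse the same counts, so they cannot address this. The count of 1 called gene in HxD against WT and 1 in KO against HxD among 19 stands against backgrounds of 0.898% and 1.02%. Whether that is an excess was not tested.

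No gene was called by edgeR among 3 tested DOT1L partners, 7 readers of H3K36 methylation, 9 arginine methyltransferases and 19 genes that supply or use the methyl donor and 2-oxoglutarate. At an unadjusted p below 0.05 these lists held 0, 1, 1 and 3 genes in KO against WT, 0, 0, 0 and 3 in KO against HxD, and 1, 0, 1 and 0 in HxD against WT, in that order of lists, against 9.48%, 11.6% and 4.05% of all tested genes. Mllt6 (AF17), a DOT1L partner, had 381 ± 15.4 CPM in KO, 322 ± 29.9 in HxD and 435 ± 73.6 in WT, with a log2 fold change of -0.43 ± 0.12 in HxD against WT (adjusted p = 0.275). Glyr1, a reader of H3K36 methylation, had 37.7 ± 8.46 CPM in KO, 26.7 ± 6.61 in HxD and 18.6 ± 6.47 in WT. Its log2 fold change in KO against WT was 1.02 ± 0.29 (edgeR, adjusted p = 0.279), with every KO library above every WT library. Carm1, an arginine methyltransferase, had 10.7 ± 7.58 CPM in KO, 11.3 ± 11.4 in HxD and 0.924 ± 0.444 in WT. Its adjusted p was 0.269 in KO against WT and 0.337 in HxD against WT. Mat2b, the regulatory subunit of the enzyme that makes S-adenosylmethionine, had 187 ± 20.3 CPM in KO, 133 ± 19.5 in HxD and 149 ± 30.2 in WT, with a log2 fold change of 0.50 ± 0.16 in KO against HxD (adjusted p = 0.259). Idh2, which makes 2-oxoglutarate in mitochondria, had 64.5 ± 8.70 CPM in KO, 51.3 ± 2.36 in HxD and 54.0 ± 6.21 in WT.

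Tet2, the relative of Tet1 with counts in every library, held 266, 287, 197 and 249 counts in KO 1 to 4. It held 221, 195, 457 and 628 in HxD 1 to 4, and 369, 433, 261 and 365 in WT 1 to 4. These counts are not scaled to library totals, which were 5791642 to 9535409 in KO, 7767787 to 10347432 in HxD and 8310783 to 10915574 in WT. Tet3 was listed at 0 throughout. HxD 3 and HxD 4 were the highest for Tet2 and the 2 libraries in which Tet1 had more than 1 count. The stepped enzyme genes differed in which HxD libraries were high. Kmt2a was high in HxD 1 and HxD 4, Setdb1 in HxD 1, Setd1a in HxD 3 and Kdm3a in HxD 4. Ehmt2, Kdm2a and Setdb2 were highest in HxD 1, Kmt2d in HxD 3, and Ehmt1 and Kdm6a in HxD 4. Setd1b was highest in HxD 3 and HxD 4, at 10.9 and 7.51 CPM, as Tet2 was. Any relation of these genes to Tet1 or Tet2 was not tested.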

How the data were processed

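RNA from adult mouse cortex was measured in 12 libraries, grouped by the genotype in the labels. The authors deposited estimated counts per gene symbol and library, without normalization. The values are whole numbers, so rounding changed nothing. Per the submitters' processing notes, FastQC, Trim Galore 0.6.7, STAR 2.7.1a, SAMtools 1.9, StringTie 2.2.3 and the builds GRCm39 and mm10 were used, without role or order. The counting step is not given in the sources used here, nor is its strand setting.

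Of 21769 rows, the 56 rows of 25 symbols on several rows were left out. All 44 members matched RefSeq symbols and had a transcript length, taken as the longest GENCODE transcript. CPM (counts scaled to a common library size) were computed here from the summed counts of tested genes times TMM factors. Genes were tested with edgeR's quasi-likelihood test (edgeR 4.0.16, R 4.3.3) on all 12 libraries with genotype as the term (9 residual degrees of freedom), filterByExpr at its minimum count of 10, and a two-sided Benjamini-Hochberg adjusted p below 0.05 over 11693 genes. DESeq2 1.42.0, limma 3.58.1 (voom), other scalings and filters, a length correction, a replicate block and each library left out were alternatives. The scripts were tested on simulated data. Without molecular identifiers, reads may repeat the same molecule, and the totals speak only to counting error.

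Genes given in full are called members, members whose libraries did not overlap, members with a jump between 0 and at least 100 counts within a genotype, the 2 per class with the highest CPM per kilobase, and Kdm5d and Xist as sex-linked genes. Kmt2a was added after its values were seen. From other lists, called genes or else the 2 with the smallest p were taken, and some are not described. The members, lists and rule were chosen with earlier results of these data known. Replicate numbers were not used to pair samples, since same-numbered libraries did not deviate together (r between -0.066 and 0.073).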

Additional observations from a re-analysis of the deposited data

Results flagged for a closer look

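Within a genotype, a library was picked out when its gap to the nearest of the other 3 exceeded 0.829 of the range of the 4 (Dixon's 95% value). This was so for 21 of the 122 sets of 4 libraries examined (17.2%), and for 15.6% of the sets over all 21713 genes. Among tested genes it was 14.4% of the sets of members and 7.37% of all sets, with no test of that difference. For normally distributed values chance flags about 1 in 20, and several sets here are 0 in all libraries but 1. There were 7 in each genotype, and HxD 4 had 5 of them. The values are in CPM.

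Most were single high libraries. In KO, Kmt2a stood at 172 in KO 2 against at most 1.54 in the other KO libraries, Ehmt2 at 207 in KO 4 against at most 96.0, and Ehmt1 at 1.20 in KO 4 against 0. KO 3 was high for Kdm3a at 41.6 against at most 4.45, for Kdm1b at 21.7 against at most 15.9, and for Kmt5c at 8.34 against at most 0.856. Kmt5b stood at 0.856 in KO 1 against at most 0.267.

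In HxD 4, Kdm3a stood at 55.6 against at most 1.29 in the other HxD libraries, Ash1l at 287 against at most 229, Ehmt1 at 3.22 and Kdm5c at 2.83 against 0, while Smyd2 was low at 61.9 against at least 77.2. Setdb1 stood at 43.2 in HxD 1 against at most 0.130, and Kmt2b was low in HxD 2 at 43.5 against at least 74.4.

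In WT, Kdm3a stood at 14.5 in WT 3 against at most 0.571 in the other WT libraries. Kmt5c was at 5.51 in WT 4 against at most 0.608, and Smyd3 at 0.201 in WT 4 against 0. Kdm5d was at 29.3 in WT 1 against at most 21.5. The low libraries were WT 1 for Kmt2d, listed at 0 against at least 209, and for Setd5, at 59.7 against at least 84.3, and WT 4 for Kdm4c, at 30.6 against at least 34.2.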

How the results depend on the processing

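The count of 0 called members held in each of the 21 alternatives and all 3 comparisons. The counts over all genes did move. DESeq2 called 294 genes in KO against WT (18 by edgeR), 402 in KO against HxD (119) and 173 in HxD against WT (105). In KO against WT limma-voom called 0, with 0 members at an unadjusted p below 0.05, and the 8 libraries alone called 0. With each library left out, edgeR called 12 to 35 (35 without WT 4), 97 to 137 and 91 to 109 genes in these comparisons, and 0 members in each. With the replicate number as a block it called 5, 95 and 74. Same-numbered libraries did not deviate together over all tested genes, so the numbers were not used for pairing. What the numbers stand for is not stated in the labels. The members' median log2 fold change stayed between -0.03 and 0.06 in KO against WT, -0.13 and 0.05 in KO against HxD, and -0.06 and 0.04 in HxD against WT. Among single members, Kmt2a in KO against WT ranged from -1.40 without KO 2, a reversal, to 4.66 with other libraries left out. The number of members with an interval inside 2-fold was 20 to 25, 21 to 24 and 18 to 23. The 7 untested members did not pass the filter, and Kdm4d and Suv39h1 rest on at most 22 and 19 counts a library, which limits the precision of their values.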
